A study of Rattus norvegicus with 59 samples.

Results

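Cyclic AMP and calcium kinase signalling was described here through 93 probe sets of 54 genes, out of 8740 probe sets on a rat expression array. The members are the probe sets annotated to exactly 1 gene whose symbol begins with Adcy (adenylyl cyclases, and with them the peptide PACAP and its receptor), Prka (subunits of protein kinase A and of the AMP-activated kinase), Prkc (protein kinase C), Camk (calcium/calmodulin kinases and their inhibitors), Akap (anchoring proteins of protein kinase A) or Pde and a digit (phosphodiesterases); Akap11 and Pde1b were not taken. Of these, 64 probe sets of 40 genes were bright enough to be tested. The other 14 genes, among them Adcy8, Pde4d, Pde1c, Akap5, Prkca and both catalytic subunits of the AMP-activated kinase (Prkaa1 and Prkaa2), had no probe set above the signal filter and have no tested value. The prefixes also take in genes that act elsewhere: Prkag1 and Prkab1 belong to the AMP-activated kinase, an energy sensor, Camkv is a pseudokinase, and Pde6d binds prenylated proteins.

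The tissue came from 5 dissected brain regions (nucleus accumbens, amygdala, hippocampus, striatum and frontal cortex) in adult male rats, taken from an inbred line bred to prefer alcohol (iP, named iP5C in the study's design; animals 1 to 6) and an inbred line bred not to (iNP, named iNP1; animals 7 to 12). Each of the 59 arrays held 1 region of 1 rat, so every group had 6 animals except iP cortex with 5, because its animal 6 has no array here. No treatment was given, and each line is 1 inbred line, so a line difference is a difference between these inbred lines. Values are log2 signal, on which a difference of 1 is a 2-fold difference, and a probe set is called where limma's adjusted p was under 0.05.

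Adenylyl cyclases make cyclic AMP when stimulatory G proteins activate them, phosphodiesterases break it down, and cyclic AMP frees the catalytic subunits of protein kinase A from its regulatory subunits at sites set by anchoring proteins. Calcium acts beside it through calmodulin, which switches on CaMKII and, through the kinases Camkk1 and Camkk2, CaMKI and CaMKIV, while calcium and diacylglycerol activate protein kinase C. In the striatum and nucleus accumbens these pathways carry dopamine and adenosine signals in medium spiny neurons, and in hippocampus and cortex they take part in synaptic plasticity.

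The start regions of 4 genes on which the results turn are shown because these genes gave clear region contrasts (Adcy5, Camkk1, Camk2d) and the line difference called over all regions (Prkag1). Prkcb, Prkch and Camk2n1 also gave clear region contrasts but have no promoter in the RefSeq table. Each start region shown runs from 250 bases before to 50 bases after the RefSeq gene start in GRCr8, in the direction of the gene. Capitals mark the letters searched on both strands, TGACG (the core of the cyclic AMP response element) and GGGCGG (a GC box).
Adcy5 promoter (chr11:79123294-79123593, strand -): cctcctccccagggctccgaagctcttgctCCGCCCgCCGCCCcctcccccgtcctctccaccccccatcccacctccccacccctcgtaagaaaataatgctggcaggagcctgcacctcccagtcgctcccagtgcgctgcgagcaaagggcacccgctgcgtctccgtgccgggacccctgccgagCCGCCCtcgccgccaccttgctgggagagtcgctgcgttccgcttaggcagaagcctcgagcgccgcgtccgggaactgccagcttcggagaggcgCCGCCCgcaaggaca
Camkk1 promoter (chr10:58135685-58135984, strand +): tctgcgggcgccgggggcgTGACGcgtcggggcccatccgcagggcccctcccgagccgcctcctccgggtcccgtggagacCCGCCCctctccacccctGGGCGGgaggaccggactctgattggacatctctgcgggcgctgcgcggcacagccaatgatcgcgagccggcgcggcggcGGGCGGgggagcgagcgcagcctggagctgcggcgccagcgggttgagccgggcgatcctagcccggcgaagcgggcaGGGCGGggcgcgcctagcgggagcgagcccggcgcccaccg
Camk2d promoter (chr2:217698301-217698600, strand +): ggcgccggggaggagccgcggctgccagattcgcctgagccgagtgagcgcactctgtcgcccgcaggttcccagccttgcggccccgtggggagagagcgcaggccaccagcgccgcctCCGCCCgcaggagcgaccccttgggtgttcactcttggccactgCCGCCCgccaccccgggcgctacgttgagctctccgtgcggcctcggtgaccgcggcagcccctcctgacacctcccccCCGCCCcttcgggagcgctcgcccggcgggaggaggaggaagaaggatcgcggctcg
Prkag1 promoter (chr7:131859435-131859734, strand -): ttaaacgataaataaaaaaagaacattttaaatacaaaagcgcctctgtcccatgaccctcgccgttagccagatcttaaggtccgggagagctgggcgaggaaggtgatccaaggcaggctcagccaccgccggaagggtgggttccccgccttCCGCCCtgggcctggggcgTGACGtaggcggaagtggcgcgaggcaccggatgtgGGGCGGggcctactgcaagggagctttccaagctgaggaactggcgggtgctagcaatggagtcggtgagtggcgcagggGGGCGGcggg
The whole cyclic AMP response element, TGACGTCA, which contains that core on both strands, was in none of the 42 member genes with a promoter in the RefSeq table; 1.83% of all 33469 promoters held it. The core alone or within the element was in 8 of the 42, including Camkk1 and Prkag1 but not Adcy5 or Camk2d, where 21.2% of all promoters held it. A GC box was in 28 of the 42 (33.1% of all promoters), and TATAAA in 2 (14.2%). A match describes letters in this window and no binding was measured.

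Before the results, a few arrays need naming. On the cortex array of iP animal 5 the 3′ end of Gapdh exceeded the 5′ end by 6.14 (log2), where all other arrays lay between -0.15 and 0.44, and its profile was nearest to amygdala. The amygdala array of iP animal 1 was nearest to cortex, those of iNP animals 7 and 8 were nearest to accumbens, and the accumbens array of iP animal 4 was nearest to amygdala. All were kept; values without the first 2 of these arrays are given where they matter. Median signal was 254.1 to 393.3 over the arrays. Of the markers listed for the regions, 6 of 6 tested genes of medium spiny neurons rose in both striatal regions (median 2.04 in striatum, 2.03 in accumbens), 4 of 4 hippocampal genes were higher in hippocampus and 3 of 3 cortical genes in cortex. No gene of the amygdala list was tested, so that label has no marker check here. Of other cell types, all 5 tested oligodendrocyte genes were lower in amygdala (median -0.91; summed signal 31300 to 87270 there and 78310 to 125600 in hippocampus) and higher in hippocampus (median 0.53), with 4 of 5 higher in striatum and 3 of 5 in accumbens. Ttr, the tested choroid plexus gene, was higher in hippocampus by 4.39. All 3 tested blood genes were higher in accumbens (median 0.62), also against striatum (median 0.77), and lower in hippocampus (median -0.39). Of these blood genes 2 were lower in striatum and 1 was higher in amygdala. Of 4 tested microglial genes, 2 were higher in amygdala and 1 in accumbens, and 2 were lower in hippocampus. The part of these cells in the region results was not tested.

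Most tested members differed between regions. Within animals, a region was compared with the average of its 4 counterparts, and 43 of the 64 probe sets (67.2%), of 30 genes, were called in at least 1 region, where 49.3% of all tested probe sets were. In striatum 17 probe sets were higher (26.6% of the 64, where 6.33% of all tested probe sets were called higher) and 3 lower (4.69%, where the share over all was 7.68%). In hippocampus 2 were higher (3.12%; all, 10.8%) and 18 lower (28.1%; all, 12.6%). In amygdala 13 were higher (20.3%; all, 13.3%) and 18 lower (28.1%; all, 12.6%). In accumbens 13 were higher (20.3%; all, 12.2%) and 7 lower (10.9%; all, 8.54%). In cortex 11 were higher (17.2%; all, 7.72%) and 7 lower (10.9%; all, 9.12%). Striatum thus had mostly rises and hippocampus mostly falls among members, while over all probe sets both directions were about as common in these regions. Probe sets of 1 gene are counted apart here, so Prkcb, Camk2d and Pde4b weigh several times.

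The cortex counts depended on the 2 arrays that stand apart. Without cortex of iP animal 5 and amygdala of iP animal 1, 20 members were higher and 5 lower in cortex, and 15 of the calls were the same probe sets. Pde2a (-0.25 with all arrays, -0.09 without, adjusted p = 0.1734), Prkacb (0.17 and 0.11, adjusted p = 0.1385) and Akap1 (probe set AF068202_at, -0.36 and -0.13, adjusted p = 0.3844) lost their cortex call, and 10 other members gained one, all higher. Among those gained were both Camk2g probe sets, described with CaMKII, Camkk2 (0.25 with all arrays, 0.34 without), the second probe sets of Adcyap1 (0.25 and 0.38) and Camk2n1 (0.49 and 1.22), and both tested Pde4a probe sets (0.16 and 0.31, and 0.10 and 0.63). The lower calls rose from 7 to 11 in accumbens and from 18 to 24 in amygdala, and the other region counts moved less.

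**Figure D1:**
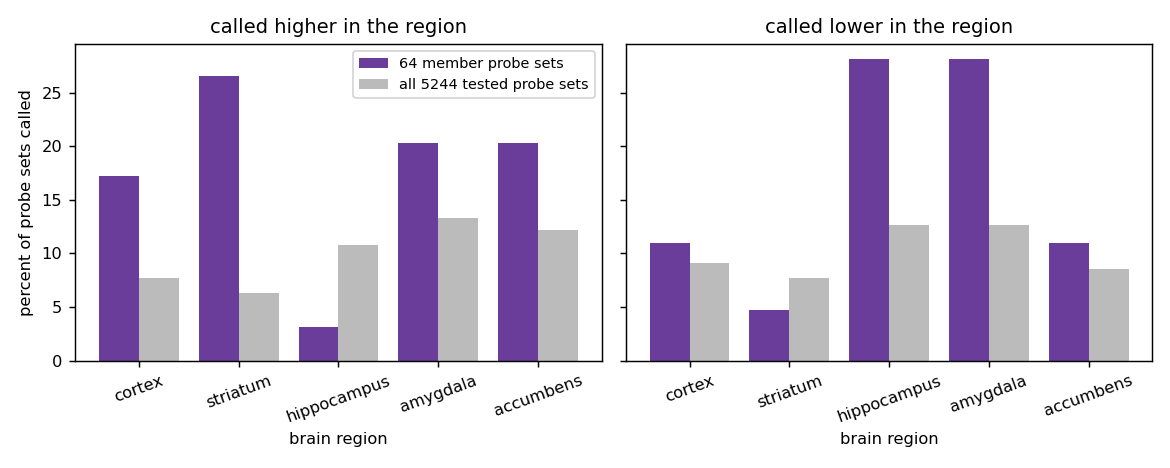
Percent of probe sets called higher (left) or lower (right) in each brain region against the mean of the other 4, for the 64 tested member probe sets (purple) and all 5244 tested probe sets (grey). Members stood furthest above the grey bars for rises in striatum (26.6% against 6.33%) and for falls in hippocampus and amygdala (28.1% against 12.6% in each).

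Adcy5, the main adenylyl cyclase of medium spiny neurons, separated the striatal regions from the rest. On its probe set M96159_at the signal in striatum ran from 11.00 through a median of 11.25 to 11.47 (log2, 12 animals), and in accumbens from 10.60 through 11.04 to 11.20. Amygdala lay at 9.93, 10.32 and 10.59 (lowest, median, highest), cortex at 9.43, 10.07 and 10.37 (11 animals) and hippocampus at 9.44, 9.65 and 9.93. Every striatal and accumbens array was above every array of the other 3 regions, while striatum overlapped accumbens, amygdala overlapped cortex, and cortex overlapped hippocampus. Against the other regions striatum was higher by 0.98 ± 0.06 (log2, SE; limma adjusted p = 4.81e-16; higher in 12 of 12 animals) and accumbens by 0.66 ± 0.06, while hippocampus differed by -0.97 ± 0.06 and cortex by -0.54 ± 0.07, each called. Accumbens was in turn below striatum by 0.26 (a difference of -0.26 ± 0.08, adjusted p = 0.02336; lower in 11 of 12 animals). The medium spiny neuron markers moved with it: their summed signal over 6 genes was 16280 to 37730 in striatum, 18160 to 27560 in accumbens, 3261 to 14270 in amygdala, 2867 to 4310 in cortex and 2167 to 2816 in hippocampus, and their part in the Adcy5 result was not tested. In such dissected tissue, fewer cells of a type and less RNA per cell cannot be told apart. A dimmer Adcy5 probe set, rc_AI044848_s_at, was also higher in striatum (0.70 ± 0.23) and lower in amygdala (-0.63 ± 0.23). Its striatal call was lost without any 1 of animals 1, 3, 5, 7, 9, 10 or 12 (0.61 to 0.69, adjusted p up to 0.1006), and its amygdala call without animal 5, 6, 9, 10 or 12 (-0.50 to -0.65, adjusted p up to 0.1148) or without the filter on dim probe sets (adjusted p = 0.05083).

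The other cyclases varied less. Adcy3, a cyclase best known from olfactory neurons, was higher in striatum (0.36 ± 0.07, adjusted p = 0.0001754; higher in 11 of 12 animals) and lower in amygdala (-0.24 ± 0.07). Adcy2, a protein kinase C-responsive cyclase and the brightest probe set of its group, had medians between 11.88 in accumbens and 12.26 in hippocampus, and all regions overlapped. It was higher in cortex by 0.32 ± 0.08 and lower in accumbens (-0.25 ± 0.08). Adcy6 passed in no region. The neuropeptide PACAP (Adcyap1), which signals through cyclic AMP, was higher in cortex by 0.42 ± 0.07 (M63006_at; higher in 11 of 11 animals; cortex 9.81 to 10.51, striatum 9.63 to 10.10), and both of its tested probe sets were lower in amygdala (-0.18 and -0.25). Its receptor Adcyap1r1 (D14909_at) ran from 8.21 to 9.44 in hippocampus and from 7.61 to 9.00 in amygdala, which overlapped; hippocampus was higher by 0.50 ± 0.13 (adjusted p = 0.004057; 9 of 12 animals) and amygdala differed by -0.42 ± 0.13.

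With all arrays, the largest called differences within protein kinase A were those of 1 regulatory subunit, Prkar2b. Prkar2b, the regulatory subunit most typical of neurons, read 7.07, 7.38 and 7.98 in hippocampus (lowest, median, highest of 12), 7.27, 7.97 and 8.51 in cortex, 7.70, 8.05 and 8.54 in amygdala, 7.59, 8.45 and 9.17 in striatum and 8.16, 8.53 and 8.97 in accumbens. Hippocampus lay wholly below accumbens and overlapped the other regions. It was lower by 0.79 against the rest (-0.79 ± 0.10, adjusted p = 1.24e-08; lower in 12 of 12 animals), and accumbens (0.55 ± 0.10) and striatum (0.37 ± 0.10) were higher. Prkar1b, another neuronal regulatory subunit and the brightest probe set of this group, changed by small steps: 0.22 ± 0.04 in amygdala (12 of 12 animals), 0.13 ± 0.04 in cortex and -0.27 ± 0.04 in accumbens (lower in 12 of 12). Prkar1a differed in amygdala only (-0.21 ± 0.07), as far as calls in these 5 regions go, and Prkar2a in none. Of the catalytic subunits, Prkacb (rc_AA891881_at) was lower in hippocampus (12.19 to 12.76 there, 12.64 to 13.18 in striatum; -0.31 ± 0.05, adjusted p = 1.66e-05; lower in 12 of 12 animals), and both called Prkaca probe sets, made from 1 sequence record, were higher in amygdala (0.16 and 0.28). The other tested Prkacb probe set, D10770_s_at, was called in no region with all arrays. Without the 2 arrays that stand apart, D10770_s_at (0.54, adjusted p = 0.006791) and rc_AA891881_at (0.17, adjusted p = 0.01216) were both higher in striatum.

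The anchoring proteins and the phosphodiesterases were counted by probe set, over 3 and 6 tested genes, and a difference between these roles was not tested. Of 9 tested phosphodiesterase probe sets, 4 were higher in striatum and 3 in accumbens, 4 were lower in hippocampus, amygdala had 1 higher and 3 lower, and cortex had 1 lower. The striatal rises and the hippocampal falls were each those of the 3 Pde4b probe sets and of Pde2a, so they mostly repeat 1 gene. The anchoring proteins had no call in striatum or hippocampus, 1 lower in cortex and 1 higher in accumbens, both of Akap1. Without the arrays that stand apart, the cortex calls of Pde2a and Akap1 were lost. Both Pde4a probe sets and J04563_at of Pde4b were then called higher in cortex. All 4 tested anchoring probe sets were called in amygdala, 3 lower and 1 higher. Akap12, a scaffold at the membrane, ran from 5.65 through 7.43 to 8.09 there and from 6.13 through 8.35 to 9.05 in accumbens, with wide overlap; the amygdala difference was -0.65 ± 0.19 (adjusted p = 0.008797; lower in 10 of 12 animals) and was lost without iNP animal 10 (-0.49, adjusted p = 0.05861). Both Akap1 probe sets, for a mitochondrial anchor, were lower in amygdala (-0.35 and -0.36), and Akap8, a nuclear anchor, was higher (0.19 ± 0.06). Pde4b, which degrades cyclic AMP, was measured by 3 tested probe sets. All 3 were higher in striatum (0.19 to 0.57) and lower in hippocampus (-0.36 to -0.53), and the pair with the wider spread, J04563_at and M25350_s_at, was lower in amygdala (-0.63 and -0.56) and higher in accumbens (0.48 and 0.45). J04563_at shows the spread: 9.24 to 10.04 in striatum, 8.43 to 9.24 in hippocampus and 6.72 to 9.72 in amygdala. Pde2a, a phosphodiesterase that cyclic GMP stimulates, was higher in striatum (0.27 ± 0.08) and amygdala (0.28 ± 0.08; 12 of 12 animals) and lower in hippocampus (-0.26 ± 0.08).

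**Figure D2:**
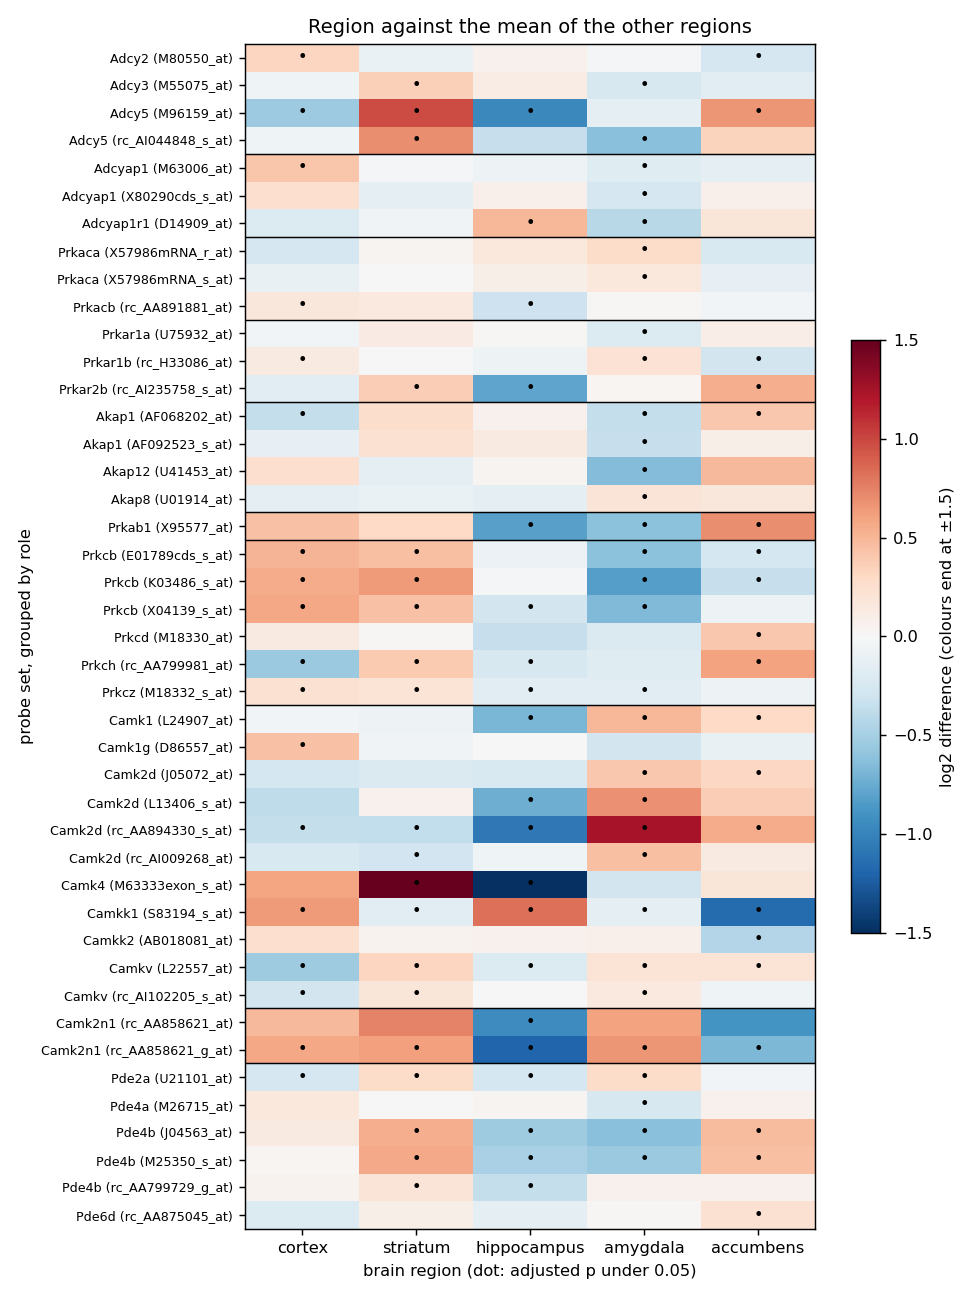
Log2 difference of each brain region against the mean of the other 4 (columns) for the 43 member probe sets called in at least 1 region (rows, grouped by role in the order of the pathway; dots mark adjusted p under 0.05; red is higher and blue lower, with colours ending at ±1.5). Adcy5 is red in striatum and accumbens and blue in hippocampus and cortex; Camkk1 is blue in accumbens (-1.15) and red in hippocampus (0.83); the 4 Camk2d rows are red in amygdala.

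The kinase that switches on CaMKI and CaMKIV, Camkk1, had the lowest p of all members in any region. Its signal (S83194_s_at) was 10.24, 10.94 and 11.04 in accumbens (lowest, median, highest of 12), 11.23, 11.65 and 11.96 in striatum, 11.46, 11.64 and 12.11 in amygdala, 12.05, 12.30 and 12.57 in cortex (11 animals) and 12.18, 12.45 and 12.61 in hippocampus. Every accumbens array lay below every array of the other regions, striatum and amygdala overlapped, and so did cortex and hippocampus. Accumbens differed by -1.15 ± 0.06 (adjusted p = 6.514e-21; lower in 12 of 12 animals), hippocampus by 0.83 ± 0.06 and cortex by 0.64 ± 0.06. The amygdala difference was -0.15 ± 0.06, and the small striatal one (-0.17 ± 0.06) was lost without any 1 of animals 1, 3, 6, 7, 8, 9 or 10 (-0.14 to -0.17, adjusted p up to 0.1147) and after quantile normalization (adjusted p = 0.06086). Its sister kinase Camkk2 was lower in accumbens as well (-0.44 ± 0.09; 7.19 to 8.93 there, 8.24 to 8.96 in striatum; lower in 11 of 12 animals). The manufacturer's suffix _s_at marks a probe set that can match several transcripts or related genes, and how far it did so was not measured.

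The targets of these kinases did not follow 1 order. Camk4, the nuclear calcium kinase, was dim and variable: 4.57, 6.02 and 8.13 in hippocampus (lowest, median, highest), 7.27, 9.20 and 9.86 in striatum, and down to the floor of 4 (log2 of 16) at the low end of cortex and accumbens. Hippocampus was lower (-2.04 ± 0.36, adjusted p = 1.914e-05; 11 of 12 animals) and striatum higher (1.54 ± 0.36, adjusted p = 0.002003; 11 of 12 animals), and these regions overlapped. Camk1, a cytoplasmic calcium kinase, read 9.08 to 10.23 in hippocampus and 9.65 to 10.84 in amygdala. It was lower in hippocampus (-0.68 ± 0.08; 12 of 12 animals) and higher in amygdala (0.50 ± 0.08, adjusted p = 2.052e-06; 11 of 12) and accumbens (0.30 ± 0.08). Camk1g was higher in cortex (0.44 ± 0.15; 0.65 without the 2 arrays). On L22557_at Camkv, which lacks kinase activity, was lower in cortex (-0.53 ± 0.08, lower in 11 of 11 animals) and hippocampus (-0.21 ± 0.08). It was higher in striatum, amygdala and accumbens (0.20 to 0.32), and read 9.08 to 9.76 in cortex and 9.85 to 10.29 in striatum. The brighter Camkv probe set, rc_AI102205_s_at, was also lower in cortex and higher in striatum (0.18 ± 0.06) and amygdala. It was not called in hippocampus or accumbens, and was lower in accumbens than in striatum (-0.20 ± 0.07, limma adjusted p = 0.04524).

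CaMKII, the abundant kinase of synapses, differed in its delta subunit. On Camk2d probe set rc_AA894330_s_at amygdala ran from 10.50 through 12.52 to 12.71, accumbens from 11.65 through 11.79 to 12.06, striatum from 10.68 through 11.14 to 11.31, cortex from 10.76 through 11.12 to 11.62 and hippocampus from 9.59 through 10.62 to 11.08. The lowest amygdala value is the array of iP animal 1 and the highest cortex value that of iP animal 5; without these, amygdala (12.40 to 12.71) lay above every other region and cortex ended at 11.17. Amygdala was higher by 1.24 ± 0.10 (adjusted p = 4.443e-13; 11 of 12 animals; 1.42 without the 2 arrays), accumbens by 0.56 ± 0.10, and hippocampus was lower by 1.07 (-1.07 ± 0.10; 12 of 12 animals). The smaller striatal difference was -0.37 ± 0.10 and that of cortex -0.36 ± 0.11; the latter was lost without iP animal 4 (-0.30, adjusted p = 0.07576). All 4 tested Camk2d probe sets were higher in amygdala, by 0.40 to 1.24, and each of these calls held without the 2 arrays. In the other regions the probe sets differed in size: in hippocampus rc_AA894330_s_at and L13406_s_at were lower (-1.07 and -0.73), and the other 2 were not called. In striatum the probe set rc_AI009268_at was lower by 0.29 (-0.29 ± 0.08), which was lost without iP animal 3 (-0.24, adjusted p = 0.06096).

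With all arrays, none of the tested Camk2a, Camk2b and Camk2g probe sets was called in any region, but for Camk2a and Camk2g this rested on the 2 arrays that stand apart. Camk2g, the gamma subunit, ran from 4.82 through 11.11 to 11.51 in cortex (J04063_at), where the lowest value is iP animal 5 and the next is 10.88; the other regions ended at 10.86 in striatum, 10.39 in hippocampus, 9.90 in accumbens and 11.02 in amygdala, the last on the array of iP animal 1 and 10.22 without it. Without the 2 arrays every cortex value lay above all other regions, and cortex was higher by 1.36 (adjusted p = 3.904e-09; 0.68 and adjusted p = 0.1236 with all arrays), amygdala differed by -0.58 and accumbens by -0.69, both called. The other Camk2g probe set, S71570_s_at, then differed by 0.83 in cortex (0.49 with all arrays) and by -0.52 in accumbens, both called. Of Camk2a, the alpha subunit, M16960_s_at was then higher in cortex (0.33) and hippocampus (0.24) and lower in amygdala (-0.39) and accumbens (-0.35). No Camk2b probe set was called either way. Camk2b, the brightest of the group (M16112_g_at), had medians from 13.88 in amygdala to 14.47 in hippocampus, with single arrays far below: the lowest were 9.79 in cortex, 11.46 in hippocampus, 11.50 in amygdala and 11.53 in accumbens. Camk2n1, a natural inhibitor of CaMKII, ran from 10.82 through 11.61 to 12.05 in hippocampus and from 11.06 through 12.04 to 12.22 in accumbens (rc_AA858621_g_at), against 12.49, 13.03 and 13.37 in striatum and 11.81, 13.20 and 13.49 in amygdala. Cortex ran from 9.40 through 13.27 to 13.72, where the lowest value is iP animal 5 and the next is 13.12. Hippocampus and accumbens overlapped each other and lay below every striatal array. Hippocampus was lower (-1.19 ± 0.19, adjusted p = 1.684e-06; 12 of 12 animals), as was accumbens (-0.67 ± 0.19), and amygdala (0.66 ± 0.19) and striatum (0.62 ± 0.19) were higher. Cortex was higher by 0.58 ± 0.19, and by 0.97 without the 2 arrays; with all arrays that call was lost without any 1 of animals 1, 2, 3, 4, 7, 8, 9 or 10 (0.41 to 0.59, adjusted p up to 0.1681).

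**Figure D3:**
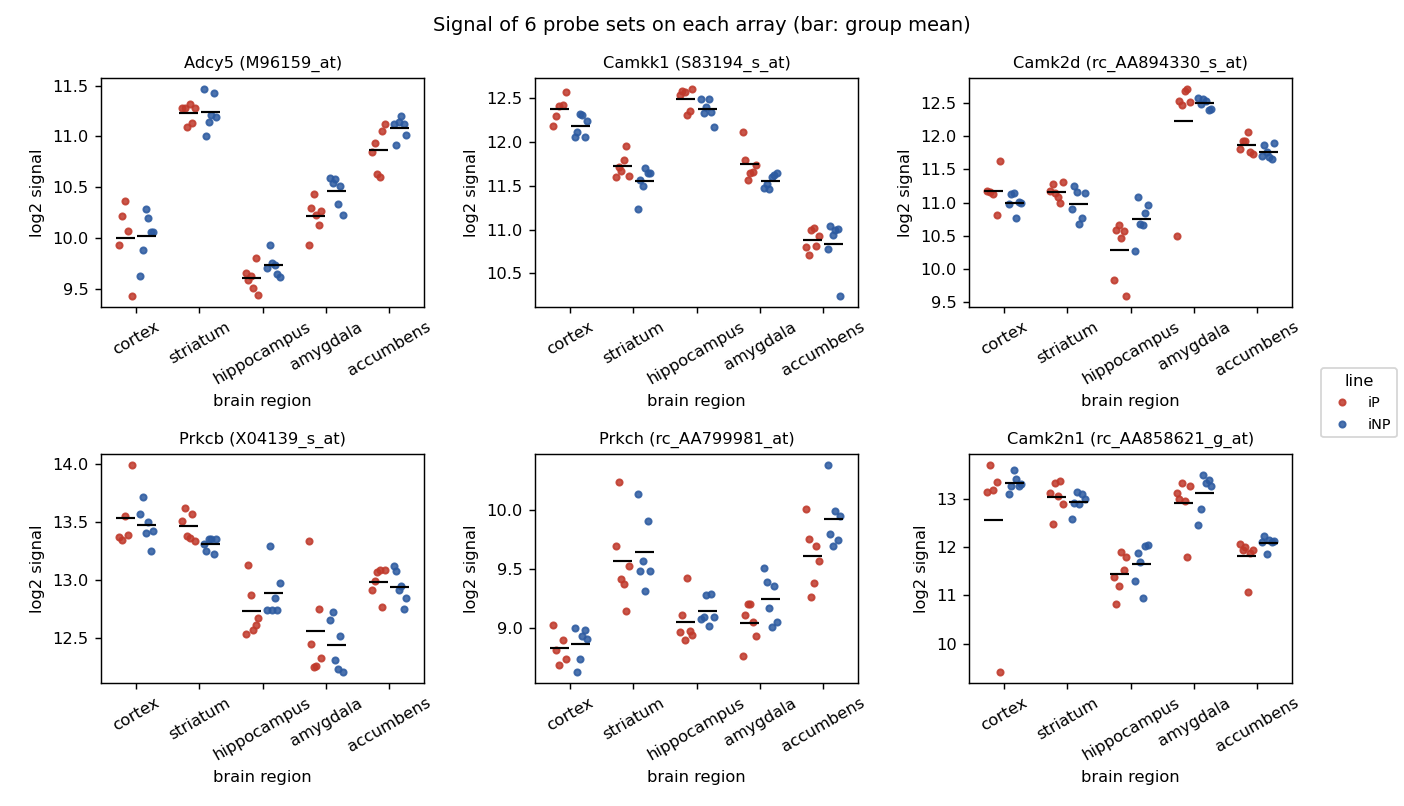
Log2 signal of 6 member probe sets on each of the 59 arrays, by brain region and line (iP red, iNP blue; bars are group means). Adcy5 is highest in striatum and accumbens, every accumbens point of Camkk1 is below all other regions, and the single low amygdala point of Camk2d (10.50) and low cortex point of Camk2n1 (9.40) are iP animals 1 and 5.

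Protein kinase C was split by isoform. Prkcb, a calcium-dependent isoform abundant in neurons, was higher in cortex and striatum and lower in amygdala on all 3 tested probe sets. On X04139_s_at cortex read 13.24, 13.42 and 13.99 (lowest, median, highest), striatum 13.23, 13.35 and 13.62, accumbens 12.75, 12.97 and 13.12, hippocampus 12.53, 12.74 and 13.29 and amygdala 12.20, 12.38 and 13.33, the last of these on the array of iP animal 1. All cortex and striatal arrays were above all accumbens arrays. Cortex was higher by 0.58 ± 0.07 (adjusted p = 2.239e-08; 11 of 11 animals) and striatum by 0.44 ± 0.07 (12 of 12), hippocampus differed by -0.28 ± 0.07 and amygdala by -0.66 ± 0.07 (lower in 11 of 12; -0.74 without the 2 arrays). With all arrays, X04139_s_at was the only Prkcb probe set called in hippocampus. The probe set K03486_s_at gave 0.56 in cortex, 0.64 in striatum and -0.83 in amygdala. Its accumbens call (-0.34 ± 0.11) was lost without iNP animal 12 (-0.20, limma adjusted p = 0.1274).

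Prkch, an isoform that needs diacylglycerol but not calcium, had another order. It ran from 9.26 through 9.75 to 10.38 in accumbens, from 9.14 through 9.50 to 10.23 in striatum, from 8.76 through 9.14 to 9.51 in amygdala, from 8.90 through 9.09 to 9.42 in hippocampus and from 8.63 through 8.90 to 9.02 in cortex. Accumbens and striatum overlapped each other and lay above all cortex arrays. Accumbens was higher by 0.60 ± 0.07 (adjusted p = 6.002e-09; 12 of 12 animals) and striatum by 0.39 ± 0.07, and cortex was lower by 0.56 (-0.56 ± 0.07; 11 of 11). Prkcz, an atypical isoform, moved by 0.23 at most (M18332_s_at, higher in cortex and striatum, lower in hippocampus and amygdala). Prkcd (M18330_at) was higher in accumbens (0.41 ± 0.13). The other tested Prkcd probe set, M18330_g_at on the same record, was brighter and was called in no region. Likewise, no Prkce probe set was called. Prkab1 of the AMP-activated kinase was higher in accumbens (0.70 ± 0.18; 7.78 to 8.89; 10 of 12 animals) and lower in hippocampus (-0.82 ± 0.18; 5.80 to 8.47) and amygdala (-0.62 ± 0.18).

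Accumbens and striatum, both striatal tissue, were compared within animals in the same fit. Of the 64 probe sets 4 were higher in accumbens (6.25%; all tested probe sets, 8.58%) and 12 lower (18.8%; all, 5.57%). The Camk2d probe set rc_AA894330_s_at was higher in accumbens by 0.74 ± 0.13 (adjusted p = 2.954e-05; 12 of 12 animals). J05072_at (0.42 ± 0.13) and rc_AI009268_at (0.34 ± 0.11) of the same gene were higher too, but both calls were lost after quantile normalization (0.34 and 0.27, adjusted p = 0.06375 and 0.0739). The first was also lost without animal 2, 7 or 10 (adjusted p up to 0.07496), and the second without animal 2, 3, 5, 9, 10 or 11 (adjusted p up to 0.07109). Camk2n1 was lower in accumbens by 1.04 (rc_AA858621_g_at, -1.04 ± 0.23, adjusted p = 0.001053; 12 of 12 animals). The other Camk2n1 probe set, rc_AA858621_at, lies on the same record and differed by -1.32 ± 0.43 (12 of 12 animals), a call lost without any 1 of animals 3, 4, 8, 9, 10, 11 or 12 (-1.09 to -1.35, adjusted p up to 0.08545). Lower as well were Prkcb on its 3 probe sets (-0.42 to -0.79; 12 of 12 animals each; K03486_s_at -0.79 ± 0.14), Camkk1 (-0.78 ± 0.07; 12 of 12), Adcy3 (-0.43 ± 0.09) and Prkar1b (-0.22 ± 0.05). With all arrays no phosphodiesterase or anchoring protein was called between these regions. Without the 2 arrays that stand apart, which are of other regions, 4 members were higher and 15 lower. Pde2a was then called (-0.24, limma adjusted p = 0.0004611, and 0.08856 with all arrays), and it was lower in 12 of 12 animals. Camk2g (J04063_at, -0.70, adjusted p = 0.003498) and Camk2a (M16960_s_at, -0.42, adjusted p = 0.008096) were then called lower as well.

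Where a gene had several tested probe sets (18 genes), they never gave calls in opposite directions in a region. In 20 pairs of a gene and a region at least 2 probe sets were called, all one way, and in 25 a single one was. Some of these probe sets share a sequence record and are then no separate check.

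Between the lines, 1 of the 64 members was called over all regions (1.56%, where 2.65% of all tested probe sets were called), a share that rests on 1 probe set. At an unadjusted p under 0.05 there were 14 members (626 of all 5244, 11.9%). The difference of the line means was negative, lower in iP, for 42 members and positive for 22, with a median of -0.06 against -0.01 over all tested probe sets. Without the 2 arrays these counts were 39 and 25, with medians of -0.04 and -0.01. Probe sets of 1 gene are counted apart here too, so Prkce, negative on all its tested probe sets, weighs several times. The share of negative differences over all tested probe sets is not given here. The animals of the lines did not overlap for 1 member, and for 150 of all tested probe sets (2.86%). Standard errors of the members ran from 0.04 to 0.36 with a median of 0.11.

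The called gene was Prkag1, which encodes a gamma subunit of the AMP-activated kinase, the subunit that binds AMP. Each animal was given 1 value, the mean over its regions after the level of each region was removed and the overall level added back. For Prkag1 these values were 9.53, 9.61 and 9.84 in iP (lowest, median, highest of 6) and 9.84, 10.06 and 10.15 in iNP. The animals of the lines did not overlap, though the highest iP and the lowest iNP animal both round to 9.84. The difference was -0.39 ± 0.07 (adjusted p = 0.003206; -0.43 without the 2 arrays), and it was called with every animal left out in turn and under every other setting tried (-0.37 to -0.43, adjusted p up to 0.01067). In cortex the iP values were 9.66, 9.53, 9.43, 9.67 and 9.93, and the iNP values ran from 9.85 through 10.05 to 10.26. Striatum gave 9.34, 9.66 and 9.84 in iP against 9.72, 10.03 and 10.25 in iNP, hippocampus 9.15, 9.59 and 9.90 against 9.84, 9.89 and 10.14, and amygdala 9.43, 9.60 and 10.26 against 9.67, 9.81 and 10.23, with overlap in each. In accumbens the lines did not overlap: iP lay at 9.23, 9.70 and 9.84 and iNP at 10.04, 10.24 and 10.47.

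Taken region by region, the Prkag1 difference was -0.64 ± 0.13 in accumbens, -0.41 ± 0.12 in cortex, -0.36 ± 0.12 in striatum, -0.34 ± 0.12 in hippocampus and -0.20 ± 0.15 in amygdala. Only that of accumbens was called (adjusted p = 0.03185), and it was lost after quantile normalization (-0.65, adjusted p = 0.05795) and without any 1 of animals 1, 2, 5, 7, 9, 10 or 12 (-0.56 to -0.65, adjusted p up to 0.08941). This was 1 of 64 members, where 0.572% of all tested probe sets were called in accumbens. The amygdala array of iP animal 1 held the highest iP value there (10.26), and without it the amygdala difference was -0.31 (adjusted p = 0.3319). Prkag1 was called in no region comparison, so no difference between regions was detected for it. Among the cell type markers, 1 of 4 tested microglial genes (P2ry12, -0.77 ± 0.11) and 1 of 3 blood genes (Hbb-b1, -0.38 ± 0.09) were also lower in iP over all regions. The summed microglial signal was 1622 to 3746 in iP and 2420 to 3747 in iNP arrays, the summed blood signal 20310 to 56010 and 25360 to 68850, no tested marker of either list was at 0 on any array, and their part in the Prkag1 result was not tested. A single probe set measured this gene, and a sequence difference between the lines under its probes was not tested.

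**Figure D4:**
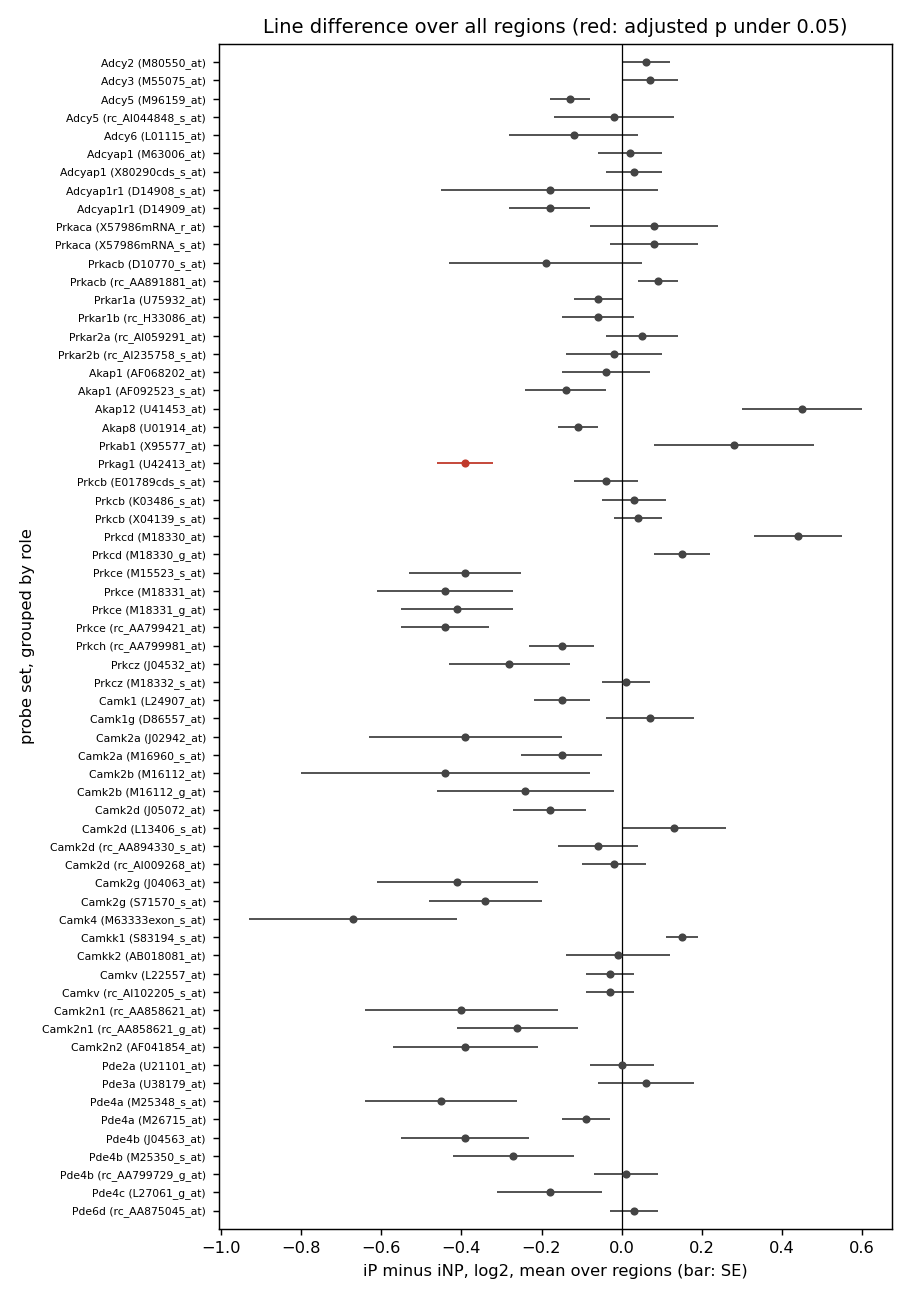
Line difference (iP minus iNP, log2, mean over the regions of each animal with region levels removed, 6 against 6 animals) of the 64 tested member probe sets, grouped by role; bars are standard errors and red marks adjusted p under 0.05. Prkag1 (-0.39 ± 0.07) is the marked point; Prkcd and Akap12 lie to the right, and the 4 Prkce probe sets to the left between -0.39 and -0.44.

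A pair of protein kinase C isoforms came next. Prkcd, a calcium-independent isoform, had animal values of 8.19, 8.68 and 8.82 in iP and 7.88, 8.19 and 8.35 in iNP (M18330_at), with overlap; the difference was 0.44 ± 0.11 and missed the threshold (adjusted p = 0.05102). Without the 2 arrays it was 0.43 (adjusted p = 0.04994), and without iP animal 6 it was 0.52 (adjusted p = 0.005171). The regional differences were 0.90 in striatum, 0.63 in both cortex and hippocampus, 0.25 in accumbens and -0.14 in amygdala, none called. The second Prkcd probe set, M18330_g_at on the same record, differed by 0.15 ± 0.07 over all regions.

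Prkce, a calcium-independent isoform of neurons, gave negative line differences on all 4 tested probe sets (-0.39 to -0.44; -0.28 to -0.32 without the 2 arrays), none called. On rc_AA799421_at the animal values, with region levels removed, were 10.44, 10.91 and 11.31 in iP and 11.21, 11.33 and 11.42 in iNP, an SD of 0.30 against 0.09 (difference -0.44 ± 0.11, adjusted p = 0.05569). Low iP arrays occurred in each region. Cortex gave 10.73, 10.80, 10.64, 11.08 and 7.73, where the lowest iNP value was 10.93. The lowest iP and iNP values were 9.36 and 11.11 in accumbens, 10.31 and 11.41 in amygdala, 9.89 and 11.19 in hippocampus, and 10.08 and 10.85 in striatum. The value of 7.73 is the cortex array with the Gapdh ratio of 6.14; the other low iP arrays had ratios of 0.36 (accumbens), 0.44 (amygdala), 0.10 (hippocampus) and 0.01 (striatum), of which only the first 2 are high among the remaining arrays, and the part of RNA quality in this difference was not tested. Without the 2 arrays the difference was -0.32 (adjusted p = 0.07904).

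**Figure D5:**
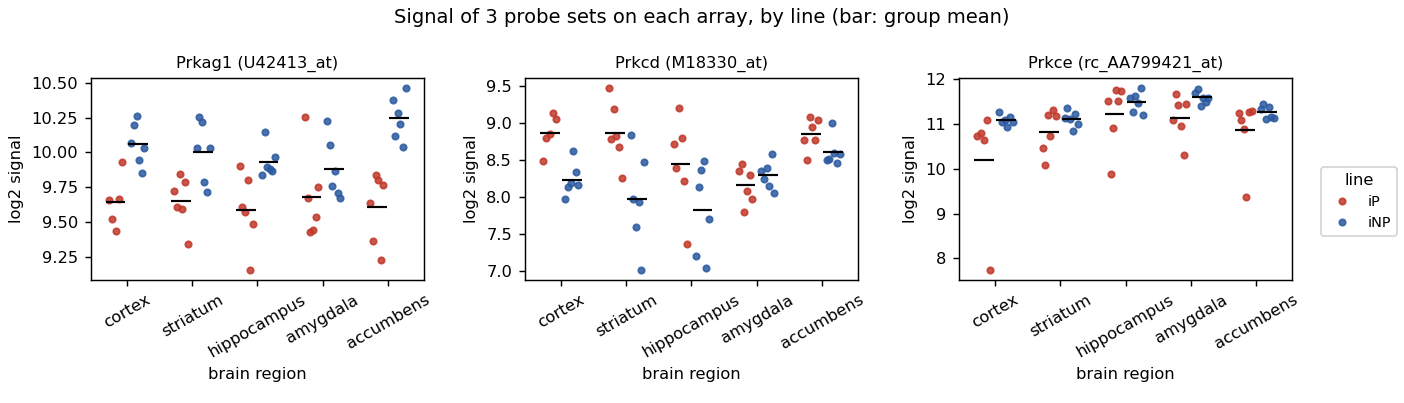
Log2 signal of Prkag1, Prkcd and Prkce on each array by brain region and line (iP red, iNP blue; bars are group means). For Prkag1 the iP mean is below the iNP mean in each region and the lines separate in accumbens; Prkcd is higher in iP outside amygdala; Prkce has single low iP arrays, the lowest at 7.73 in cortex.

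No member was called by line in cortex (all tested probe sets, 0.229%), striatum (0.839%), hippocampus (0.667%) or amygdala (0.725%). At an unadjusted p under 0.05 limma gave 4, 6, 6 and 7 of the 64 in these regions. Of all tested probe sets, 5.26%, 8.01%, 7.00% and 8.75% were under that limit. The line by region interaction, which asks whether the line difference varies between regions, was called for no member and for 0% of all probe sets, with 4 members and 242 of 5244 probe sets (4.62%) at an unadjusted p under 0.05. Its smallest p-values among members belonged to Prkcd (M18330_at, regional line differences spread over 1.04) and Adcy2 (spread over 0.59), each with an adjusted p of 0.9558. The genes with the largest region contrasts were not called by line: over all regions Adcy5 differed by -0.13 ± 0.05 (M96159_at, adjusted p = 0.2734), Camkk1 by 0.15 ± 0.04 (adjusted p = 0.1384), Camk2d by -0.06 (rc_AA894330_s_at) and Prkcb by 0.04 (X04139_s_at).

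Partners of these enzymes outside the membership, 43 tested genes of 61 listed, were taken from the same fits, each gene by its brightest tested probe set. Members and the shares over all were counted by probe set, so the partner counts differ from them in unit. None was called by line over all regions or in any region. Striatum had 17 higher and 2 lower, cortex 8 and 9, accumbens 8 and 11, amygdala 10 and 11, and hippocampus 7 and 14, and 2 were higher and 15 lower in accumbens than in striatum. Over all tested probe sets the shares called higher and lower were 6.33% and 7.68% in striatum, 7.72% and 9.12% in cortex, 12.2% and 8.54% in accumbens, 13.3% and 12.6% in amygdala, 10.8% and 12.6% in hippocampus, and 8.58% and 5.57% for accumbens against striatum. Rises outnumbered falls in striatum as they did among members. In cortex the partners were about even. In accumbens the partners had 8 rises and 11 falls, where the members had 13 and 7, or 13 and 11 without the 2 arrays that stand apart. The partner counts are those with all arrays. Gnal, the stimulatory G protein subunit that couples dopamine and adenosine receptors to Adcy5, was higher in striatum (1.99 ± 0.22) and accumbens (2.18 ± 0.22) and lower in cortex (-2.75 ± 0.23) and hippocampus (-1.75 ± 0.22). Arpp21, a protein kinase A substrate of striatal neurons, was higher in striatum (1.19 ± 0.08) and lower in hippocampus (-1.82 ± 0.08). Nrgn, a protein kinase C substrate that binds calmodulin, was lower in accumbens (-1.29 ± 0.06) and higher in cortex (0.65 ± 0.06). Pcp4l1, a relative of a calmodulin-binding peptide, was higher in accumbens (2.09 ± 0.11), also against striatum (1.12 ± 0.14). In amygdala the calcium release channel Itpr1 (-0.71 ± 0.07) and the phospholipase Plcb4 (-0.66 ± 0.12) were lower, and Pkia, an inhibitor of protein kinase A, was higher (0.49 ± 0.08). By list, the striatal rises were 3 of 8 tested G protein subunits, 5 of 10 kinase substrates and transcription factors, 3 of 8 phosphatases, 3 of 11 genes of phospholipase C, diacylglycerol kinase and calcium release, all 3 calmodulin genes and calmodulin-binding proteins, and none of 3 protein kinase A inhibitors and Epac genes.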

How the data were processed

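The deposited intensity values are linear, 1 per array and probe set; which software the authors used is not stated in the labels or file headers. The 2% trimmed mean of every array was 1000, so scaling had been done and was not repeated. The log2 of the deposited signal was taken after raising values under 16 to 16. Of 8799 probe sets, 59 controls and the 40% with the lowest mean were left out (5244 tested; lowest mean kept 7.65). Genes come from the array annotation.

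Tests used limma 3.58.1 in R 4.3.3 with an intensity trend, two-sided, Benjamini-Hochberg over all 5244 probe sets. Lines were compared over all regions on 1 value per animal, the mean over its regions after removing each region's level, and in each region alone. Regions and the interaction were fitted with the animal as a fixed block, paired by the animal numbers in the titles. The source name gives iNP for all arrays and was not used. Fits were tested on simulated data. Arrays hold no read depth; the number of animals limits precision. Members and lists were chosen with earlier results of these data known. Named were members called by line, the smallest p-values by line and interaction, the largest region changes and the brightest probe set of each role; others named were chosen after their values were seen. Alternatives covered the filter, normalization, floor, trend, blocks and left-out arrays or animals.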

Additional observations from a re-analysis of the deposited data

Results flagged for a closer look

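A pair of values lay far from the others of their group by Dixon's ratio, out of 40 group tests on 4 probe sets. By chance about 1 in 20 would, which is about as many as were found. Camkk1 (S83194_s_at) was 10.24 in accumbens of iNP animal 12, where the other 5 iNP animals lay between 10.78 and 11.04. Camk2d (rc_AA894330_s_at) was 10.50 in amygdala of iP animal 1, where the other iP animals lay between 12.46 and 12.71; this is the array whose profile was nearest to cortex.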

How the results depend on the processing

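Counts of called members kept within 1.5 times of their value in 230 cases and moved in 16, all of them line counts; the region counts, taken over both directions together, and the interaction count moved in none. Within that limit the amygdala count of 31 became 21 without animal 10 and 37 without the 2 arrays that stand apart. The cortex count of 18 became 13 without animal 9 and 25 without the 2 arrays. By direction, 2 region counts moved by over 1.5 times without the 2 arrays that stand apart, cortex higher from 11 to 20 and accumbens lower from 7 to 11. Over all regions the count of 1 (Prkag1) became 3 after quantile normalization (with Prkcd and Prkce), 2 with a floor of 64, 2 without the intensity trend and 2 without the 2 arrays that stand apart (each with Prkcd). It ran from 1 to 4 with single animals left out: 3 without animal 1 (Prkce and Camk4), 4 without animal 6 (Prkcd and a pair of Prkce probe sets) and 2 without animal 7 (Akap12). In accumbens the count of 1 became 0 after quantile normalization and ran from 0 to 1 with single animals left out. A joint fit of all regions, in which animals were a random replicate block, called 1 member (Prkcd, 0.90, adjusted p = 0.03273) by line in striatum, where the fit of that region alone called 0. Without the replicate block of the paired region fits, 27 members were called in amygdala, 20 in hippocampus and 19 in each of cortex, striatum and accumbens. Over 48 named results the settings kept the call or its absence in 832 cases, lost it in 59, gained it in 5 and reversed it in 0; the cause was not tested.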
